A study of Drosophila melanogaster with 2 samples.

Results

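The mitochondrial ribosomal protein genes were taken as the protein-coding genes whose symbol begins with mRpL or mRpS and a number, and 73 of the 13945 protein-coding genes on the chromosome arms with peaks met that rule. Of these, 47 encode proteins of the large subunit and 26 encode proteins of the small subunit. Their binding by scratch (scrt), a neuronal zinc-finger repressor of the Snail family, was read from chromatin immunoprecipitation and sequencing (ChIP-seq) in Drosophila melanogaster. Whole mixed-sex embryos collected at 4 to 24 h were used, from a line with a transgene for scrt with GFP at its C terminus (scrt-GFP). The study has a single group of 2 biological replicates, numbered 3 and 4, and no second genotype, strain or treatment. Whole embryos mix all tissues, so a peak cannot be assigned to a cell type, and the labels do not state whether the endogenous scrt gene was still present. One label field calls both libraries input controls while the antibody field names scrt, and the libraries were read here as scrt immunoprecipitations.

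Mitochondria keep ribosomes of their own, which translate the few proteins encoded in mitochondrial DNA, all of them parts of the respiratory chain and ATP synthase in animals. The ribosomal proteins are encoded in the nucleus, made in the cytosol and imported, and the set is a mix of proteins shared with bacterial ribosomes and proteins that only mitochondria have. The genes are short and are transcribed in nearly all tissues. Snail-family factors bind E-boxes, short sites of the form CANNTG, with CAGGTG as the usual one.

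A gene was called bound when the summit of a peak in the authors' optimal list lay within 1000 bp of any of its transcription start sites (TSSs). This list holds 6407 peaks on assembly dm6, made from both replicates with a threshold on the irreproducible discovery rate (IDR). By this rule 29 of the 73 mitochondrial ribosomal protein genes were bound (39.7%), against 25.6% of all protein-coding genes. No test of this difference was made, since the genes were chosen with earlier results of these data known. With only 1 group of 2 samples no test between samples was possible. All shares below are descriptions of this one list.

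The bound large-subunit genes were mRpL2, mRpL3, mRpL11, mRpL17, mRpL18, mRpL20, mRpL21, mRpL23, mRpL24, mRpL27, mRpL32, mRpL34, mRpL39, mRpL41, mRpL47, mRpL53 and mRpL55. The bound small-subunit genes were mRpS2, mRpS7, mRpS10, mRpS11, mRpS16, mRpS17, mRpS18A, mRpS21, mRpS23, mRpS24, mRpS26 and mRpS31. The highest peak at each gene was a different one, which gave 29 distinct peaks. A second optimal summit lay within 1000 bp at 2 of the genes, mRpS24 and mRpS26, and values below are for the highest peak.

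The promoters of 6 of the 7 bound genes of highest signal are shown first, because the shared stretch between a ribosomal protein gene and its neighbour is what most of the results turn on. Each runs 5′ to 3′ on the strand of the mRp gene. It ends 30 bases after that gene's most upstream TSS, and it starts 250 bases before that TSS or, where the neighbour's facing TSS is nearer, 30 bases past the neighbour's TSS. Sequences are from the RefSeq genome of Release 6, the build of the peaks. Capitals mark TATCGATA (the DNA replication-related element, DRE), GGTCACACT (core of a Drosophila core-promoter motif), CAGCTG (an E-box with a GC centre), CAGGTG or GCAACA, on either strand. The windows are chr2L:13835043-13835322 (minus strand) for mRpS23, chr3R:15229415-15229694 (plus) for mRpS10, chr3R:17072645-17072761 (plus) for mRpS11, chr3L:2373675-2373758 (minus) for mRpL23, chr2L:4945332-4945609 (minus) for mRpL24 and chr2L:4850390-4850669 (minus) for mRpS2.
mRpS23: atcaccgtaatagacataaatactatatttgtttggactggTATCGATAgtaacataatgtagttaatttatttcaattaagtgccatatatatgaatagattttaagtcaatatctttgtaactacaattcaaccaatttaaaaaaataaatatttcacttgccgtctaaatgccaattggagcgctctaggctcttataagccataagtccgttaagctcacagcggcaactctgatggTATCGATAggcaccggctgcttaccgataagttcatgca
mRpS10: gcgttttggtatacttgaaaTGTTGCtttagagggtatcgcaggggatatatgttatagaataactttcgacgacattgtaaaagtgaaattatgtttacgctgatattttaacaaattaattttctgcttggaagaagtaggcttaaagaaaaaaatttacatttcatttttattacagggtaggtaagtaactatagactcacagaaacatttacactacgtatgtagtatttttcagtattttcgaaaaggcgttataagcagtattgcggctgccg
mRpS11: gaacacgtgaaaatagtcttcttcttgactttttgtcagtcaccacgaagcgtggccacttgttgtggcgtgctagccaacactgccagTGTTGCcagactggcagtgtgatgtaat
mRpL23: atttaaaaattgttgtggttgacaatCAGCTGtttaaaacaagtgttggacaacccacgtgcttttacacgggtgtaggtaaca
mRpL24: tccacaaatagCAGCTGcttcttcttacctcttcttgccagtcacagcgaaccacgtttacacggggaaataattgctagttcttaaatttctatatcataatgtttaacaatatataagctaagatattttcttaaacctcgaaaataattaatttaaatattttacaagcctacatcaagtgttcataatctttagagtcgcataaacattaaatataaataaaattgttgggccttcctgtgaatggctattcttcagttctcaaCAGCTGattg
mRpS2: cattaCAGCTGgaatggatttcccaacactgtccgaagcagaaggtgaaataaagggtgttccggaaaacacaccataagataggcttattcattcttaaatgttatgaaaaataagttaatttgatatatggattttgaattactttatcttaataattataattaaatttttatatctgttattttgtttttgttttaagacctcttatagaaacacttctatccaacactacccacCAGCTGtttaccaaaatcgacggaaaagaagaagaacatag

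In the printed mRpS23 window the DRE appears near both ends, while the summit lay farther upstream, 388 bp before the TSS and outside the window. In mRpL24 and mRpS2 a CAGCTG stands near each end, close to the neighbour's TSS and close to the member's own. The summits of mRpS10, mRpL24 and mRpS2 fell inside the printed stretch, 131, 122 and 145 bp before the TSS. The mRpS11 window is short because the facing TSS of Ns1 is 57 bp away, and its summit lay between the pair. None of the 6 windows held CAGGTG.

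For contrast, the promoters of the unbound genes farthest from any optimal summit are mRpS5 at chr3L:24536986-24537265 (plus) and mRpL1 at chr3R:8301190-8301469 (plus), with the same window and the same motifs searched. Neither held one of the marked motifs. These examples do not stand for the unbound genes as a set. In the promoter window searched below, 24 of 44 unbound genes held CAGCTG, and 16 of 29 bound ones.
mRpS5: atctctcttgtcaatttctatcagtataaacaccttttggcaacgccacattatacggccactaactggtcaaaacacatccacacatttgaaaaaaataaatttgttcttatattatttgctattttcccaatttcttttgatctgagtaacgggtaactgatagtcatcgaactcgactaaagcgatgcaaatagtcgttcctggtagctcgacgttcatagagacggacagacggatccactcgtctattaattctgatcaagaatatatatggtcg
mRpL1: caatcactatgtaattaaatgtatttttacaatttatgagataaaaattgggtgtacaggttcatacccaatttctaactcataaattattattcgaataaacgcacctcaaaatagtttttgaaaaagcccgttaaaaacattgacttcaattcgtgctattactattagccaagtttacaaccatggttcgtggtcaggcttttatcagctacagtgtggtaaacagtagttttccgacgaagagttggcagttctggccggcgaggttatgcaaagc

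The highest peak at a mitochondrial ribosomal protein gene was that of mRpS23, which encodes a small-subunit protein with no bacterial counterpart. It had a signal of 3125 and ranked 68 of the 6407 optimal peaks, at chr2L:13835288-13835634. The overlapping peak ranked 149 in replicate 3 and 40 in replicate 4, each out of 30000, so it was among the leading peaks of both. Its summit was 388 bp upstream of mRpS23 and 104 bp from a TSS of CenG1A, a divergent gene for a GTPase-activating protein of Arf GTPases. The signal is the authors' own enrichment value and serves here only to rank peaks within a list.

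A similar signal was found at mRpS10, whose product is the counterpart of bacterial S10, and at mRpL41, which encodes a mitochondria-specific protein. The mRpS10 peak (chr3R:15229346-15229720) had a signal of 3023 and ranked 76, with ranks of 122 in replicate 3 and 57 in replicate 4. Its summit lay near the middle of the stretch between mRpS10 and Art3, an arginine methyltransferase gene, 131 bp from mRpS10 and 126 bp from Art3. The mRpL41 peak (chr2R:15217554-15217950) had a signal of 2853 and ranked 89, with ranks of 101 in replicate 3 and 83 in replicate 4. Here the summit was 135 bp upstream of mRpL41, and the facing gene, CG8079, started 762 bp away. These 3 peaks stood apart from the rest of the family, in which the next, mRpS11, had a signal of 1504.

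A further 4 ribosomal protein genes, each facing another gene within 250 bp, had signals between 920.8 and 1504. The mRpS11 peak (chr3R:17072561-17072875) had a signal of 1504 and ranks of 354 in replicate 3 and 351 in replicate 4. mRpS11 encodes the counterpart of bacterial S11 and faces Ns1, a gene for a nucleolar GTPase of the nucleostemin family. The mRpL23 peak (chr3L:2373442-2373798) had a signal of 1418 and ranks of 496 in replicate 3 and 302 in replicate 4. L23 sits at the exit of the protein tunnel in bacterial ribosomes, and mRpL23 faces CG9004 with 24 bp between their nearest TSSs. The mRpL24 peak (chr2L:4945320-4945647) had a signal of 1101 and ranks of 737 in replicate 3 and 494 in replicate 4. It faces betaggt-I, the beta subunit gene of a geranylgeranyl transferase. The mRpS2 peak (chr2L:4850395-4850704) had a signal of 920.8 and ranks of 888 in replicate 3 and 690 in replicate 4. Its neighbour is Mon1, which encodes part of the complex that activates Rab7.

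The remaining genes of the top 12 had lower signals, and the replicates ranked several of them far apart. The mRpL32 peak, shared with qless, a gene of coenzyme Q synthesis, had a signal of 650.5 and ranks of 1119 in replicate 3 and 1745 in replicate 4. The mRpS17 peak had a signal of 456.2 and ranks of 2321 in replicate 3 and 1864 in replicate 4. Its summit was 3 bp from a TSS of Nop60B, which encodes the pseudouridine synthase of small nucleolar ribonucleoproteins, and 433 bp from mRpS17. mRpL3, the counterpart of bacterial L3, was the bound gene of the X chromosome. Its peak, shared with Graf, had a signal of 392.8 and ranks of 1688 in replicate 3 and 4667 in replicate 4. The highest mRpS26 peak, shared with CG13698, had a signal of 387.2 and ranks of 2354 in replicate 3 and 3011 in replicate 4. A second, lower peak had its summit 79 bp from the mRpS26 TSS. The mRpL39 peak, shared with Prosbeta2, a proteasome subunit gene, had a signal of 383.1 and ranks of 2022 in replicate 3 and 4545 in replicate 4. mRpS26 and mRpL39 encode proteins found in mitochondrial and not in bacterial ribosomes.

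Another 12 bound genes had signals from 270.6 at mRpS31 to 378.6 at mRpL27. Among them mRpL53 ranked 7261 in replicate 3 and 1829 in replicate 4, and mRpS21 ranked 2414 in replicate 3 and 8025 in replicate 4, so neither replicate was the higher one throughout. Of the 28 bound genes with a peak in both lists, 13 ranked higher in replicate 3 and 15 in replicate 4.

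At the low end the replicate ranks lay far apart at mRpL55 and mRpS16, and nearer to each other at mRpL11, mRpL17 and mRpL18. The mRpL55 peak had the lowest signal, 197.6, and ranked 6222 of 6407, with ranks of 16902 in replicate 3 and 4157 in replicate 4. The mRpL17 peak, shared with Tudor-SN, had a signal of 213.4 and ranks of 4290 in replicate 3 and 8110 in replicate 4. The mRpL18 peak had a signal of 217.3 and ranks of 4254 in replicate 3 and 6274 in replicate 4. For mRpL18 the summit was also the farthest inside the 1000 bp limit, 815 bp upstream of its TSS and 216 bp from a TSS of Taz, the tafazzin gene of cardiolipin remodelling. The mRpL11 peak, shared with HtrA2, a mitochondrial protease gene, had a signal of 259.2 and ranks of 4324 in replicate 3 and 5457 in replicate 4. The mRpS16 peak, shared with combgap (cg), had a signal of 262.6 and ranks of 11739 in replicate 3 and 2190 in replicate 4. These low peaks thus rested on unequal support from the replicates for mRpL55 and mRpS16.

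The median signal at the 29 bound genes was 340.5 (197.6 to 3125), against 423.4 for all bound protein-coding genes (193.1 to 10013) and 332.9 for all optimal peaks. A signal over 500 was found at 8 of the 29 (27.6%), against 42.1% of all bound coding genes, and a signal over 1000 at 6 (20.7%), against 17.8%. The family therefore had a few high peaks and many low ones. The medians of the subunits were close, 340.5 for the bound large-subunit genes and 336.6 for the bound small-subunit genes.

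**Figure D1:**
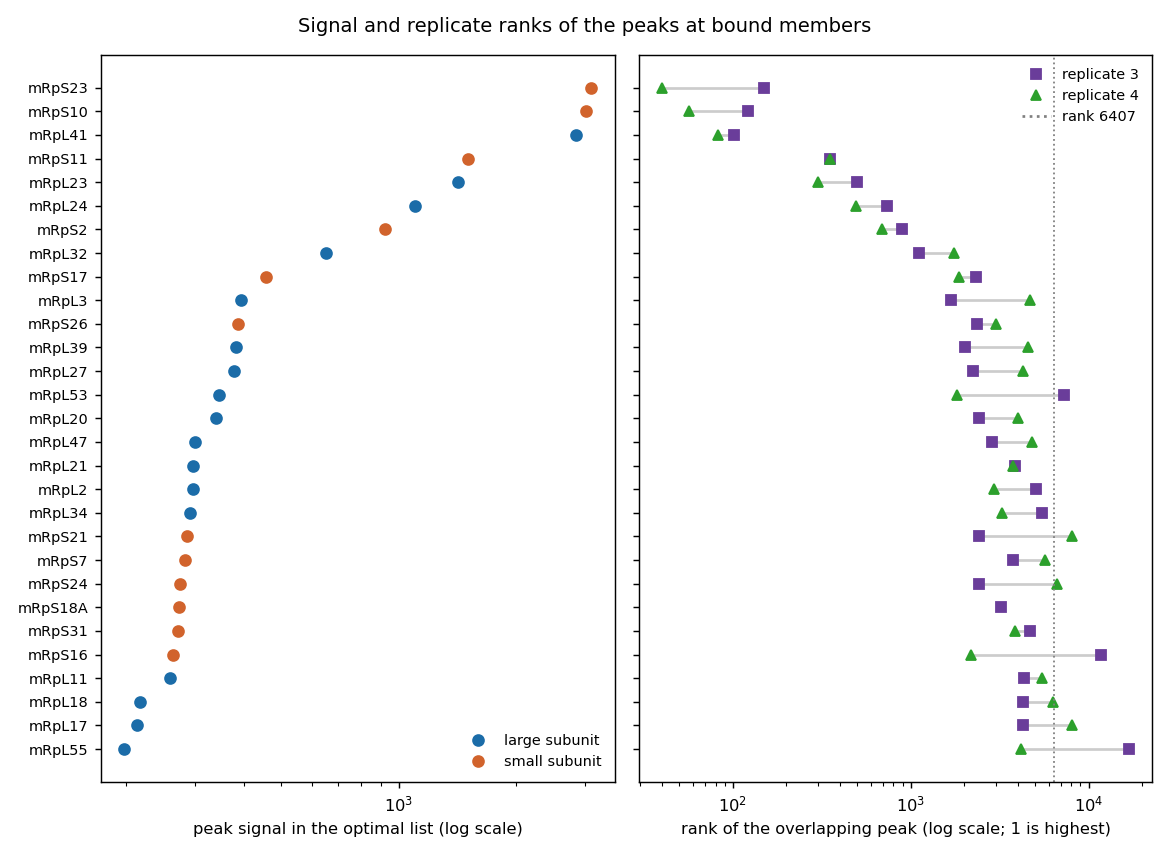
Signal of the highest peak at each of the 29 bound genes in the optimal list (left, log scale; the authors' own value, no unit) and rank of the overlapping peak in the list of each replicate (right, log scale, 1 is highest), genes ordered by signal. The dotted line is rank 6407, the length of the optimal list. mRpS23, mRpS10 and mRpL41 lie at 2853 and above, the replicate ranks lie far apart at some genes, such as mRpL53, mRpS16 and mRpL55, and mRpS18A has no overlapping peak in replicate 4.

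All 29 bound genes overlapped a peak in replicate 3 and 28 in replicate 4, the exception being mRpS18A. Taking the leading 6407 peaks of each replicate, 22 of the 29 (75.9%) fell among them in both. When genes were called from those leading peaks alone, replicate 3 gave 28 bound genes of the family, with a background of 24.7% of all coding genes, and replicate 4 gave 29, with a background of 27.4%. Of these, 23 genes were called in both, 82.1% of the replicate 3 set and 79.3% of the replicate 4 set. Beyond the optimal calls, replicate 3 added mRpL37 and replicate 4 added mRpL33, mRpL48, mRpS6 and mRpS18B. The optimal list was made from the same replicates, so these counts describe how evenly each contributed and are not a separate measurement.

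Every bound gene shared its promoter. A promoter was called shared when the TSS of another protein-coding gene lay within 1000 bp, which held for 60 of the 73 mitochondrial ribosomal protein genes (82.2%), against 42.9% of all coding genes. Of the 60, 29 were bound (48.3%), against 34.9% of all coding genes with a shared promoter. Of the 13 without such a neighbour, 0 were bound, against 18.6% of all coding genes without one. The 13 were mRpL9, mRpL10, mRpL12, mRpL14, mRpL19, mRpL40, mRpL45, mRpL49, mRpS5, mRpS9, mRpS33, mRpS34 and mRpS35.

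The genes of the family were short (median 909 bp, against 2166 bp for all coding genes) and 67 of 73 (91.8%) had a single TSS, against 73.5%, so bound counts were set beside those of genes of like length and TSS number. Protein-coding genes outside the list in the same length decile and TSS class (1, 2, 3 or more TSSs) would give 10.01 bound among 73, and the 29 seen were 2.9 times that number. By this matching on length and TSS class alone, large-subunit genes had 17 of 47 bound (36.2%) against 6.39, and small-subunit genes had 12 of 26 bound (46.2%) against 3.75. When a shared promoter was added to the matching, the number for the whole family was 15.5, and the ratio was 1.87. With the shared promoter in the matching, the number was 14.3 for the 60 genes with one, of which 29 were bound, and 1.21 for the 13 without, of which 0 were bound. Among genes whose number is shared with bacteria (mRpL up to 36 and mRpS up to 21), 20 of 42 were bound (47.6%), and among those of higher number 9 of 31 (29%), against 25.6% of all coding genes. The share of the higher-numbered genes was near that of all coding genes, a background not matched for length or TSS number. No matched number was computed for this split.

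**Figure D2:**
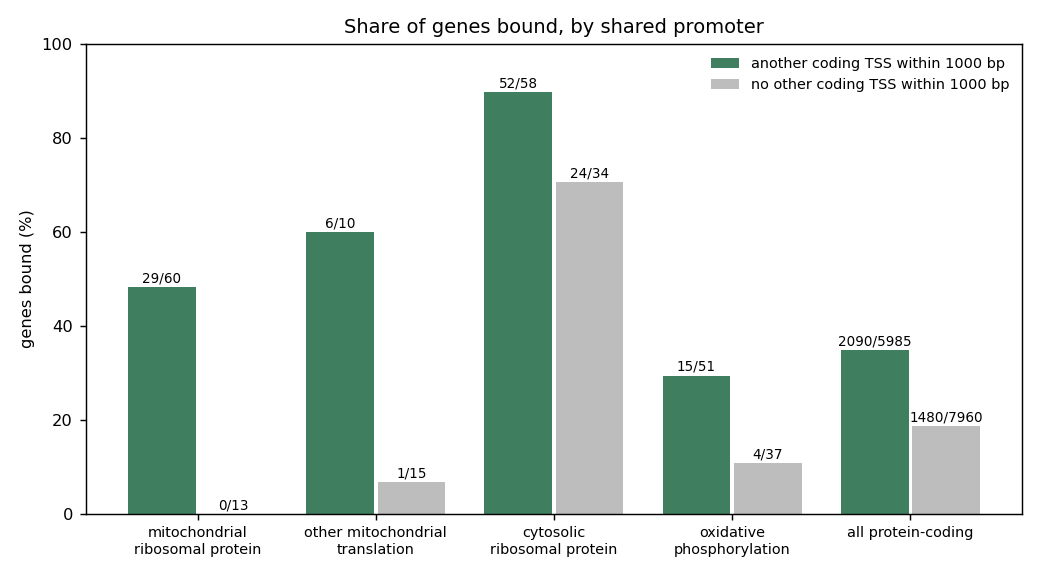
Share of genes bound (percent) among genes with another protein-coding TSS within 1000 bp (green) and without one (grey), for mitochondrial ribosomal protein genes, the 3 comparison lists and all protein-coding genes; numbers above the bars are bound genes over genes. For the mitochondrial ribosomal protein genes the bars stand at 29 of 60 and 0 of 13, and for all protein-coding genes at 34.9% and 18.6%.

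The neighbours of the bound genes were divergent, transcribed away from them from the opposite strand. All 29 had a divergent neighbour within 1000 bp, and for 28 it was the closest one. This was not limited to bound genes, since 29 of the 31 unbound genes with a shared promoter also had a divergent neighbour, and the closest neighbour was divergent for 4630 of the 5985 coding genes with a shared promoter. The exception was mRpL53, whose TSS coincides with that of CG33155 on the same strand, with AGO1, an Argonaute gene of the microRNA pathway, divergent at 170 bp. The closest neighbouring TSS was 264 bp away at the median for bound genes (0 to 762 bp), and 291 bp for unbound genes with a shared promoter (0 to 793 bp). Both medians lay near the 290 bp of all coding genes with a shared promoter. The closest neighbour was also called bound in all 29 cases, since the same peak lay within reach of both genes.

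Within these divergent promoters the summits of the highest peaks lay closer to the neighbour more often than to the ribosomal protein gene. In 20 of the 29 the summit fell between the facing TSSs, in 6 it fell past the neighbour's TSS (mRpL2, mRpL11, mRpL18, mRpL27, mRpS16 and mRpS31), and in 3 downstream of the member's own TSS (mRpL23, mRpL55 and mRpS18A). For mRpL55 and mRpS18A the summit was 663 and 684 bp downstream and nearest to other genes, cdi at 28 bp and pch2 at 145 bp. The nearest of all protein-coding TSSs was the member's own in 7 of 29 (24.1%), against 56.1% of bound coding genes with a shared promoter. The 7 were mRpL23, mRpL34, mRpL39, mRpL41, mRpS21, mRpS24 and, tied with CG33155, mRpL53. The 56.1% was not matched for TSS number, and 26 of the 29 bound members had 1 TSS.

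Set against the divergent neighbour alone, a comparison added after the values were seen, the summit was nearer to the neighbour in 20 of 29 (69%). The 9 nearer to the member include mRpL55 and mRpS18A, whose summits were nearest to cdi and pch2. The share nearer to the neighbour was 43.8% among all bound coding genes with a divergent neighbour and 54.2% among those with 1 TSS. It was 12.2% (6 of 49) among bound cytosolic ribosomal protein genes with a divergent neighbour. The share was similar whatever the neighbour's number of TSSs: the summit was nearer to the neighbour in 12 of 17 pairs in which the neighbour had 1 TSS and in 8 of 12 in which it had more. The absolute distance from the summit to the member's TSS was 178 bp at the median (29 to 815 bp), against 174 bp for all bound coding genes. Of the peaks, 17 of 29 covered the member's TSS, and 18 had a fixed width of 430 bp with the summit at the centre, which limits how finely a summit can be placed.

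**Figure D3:**
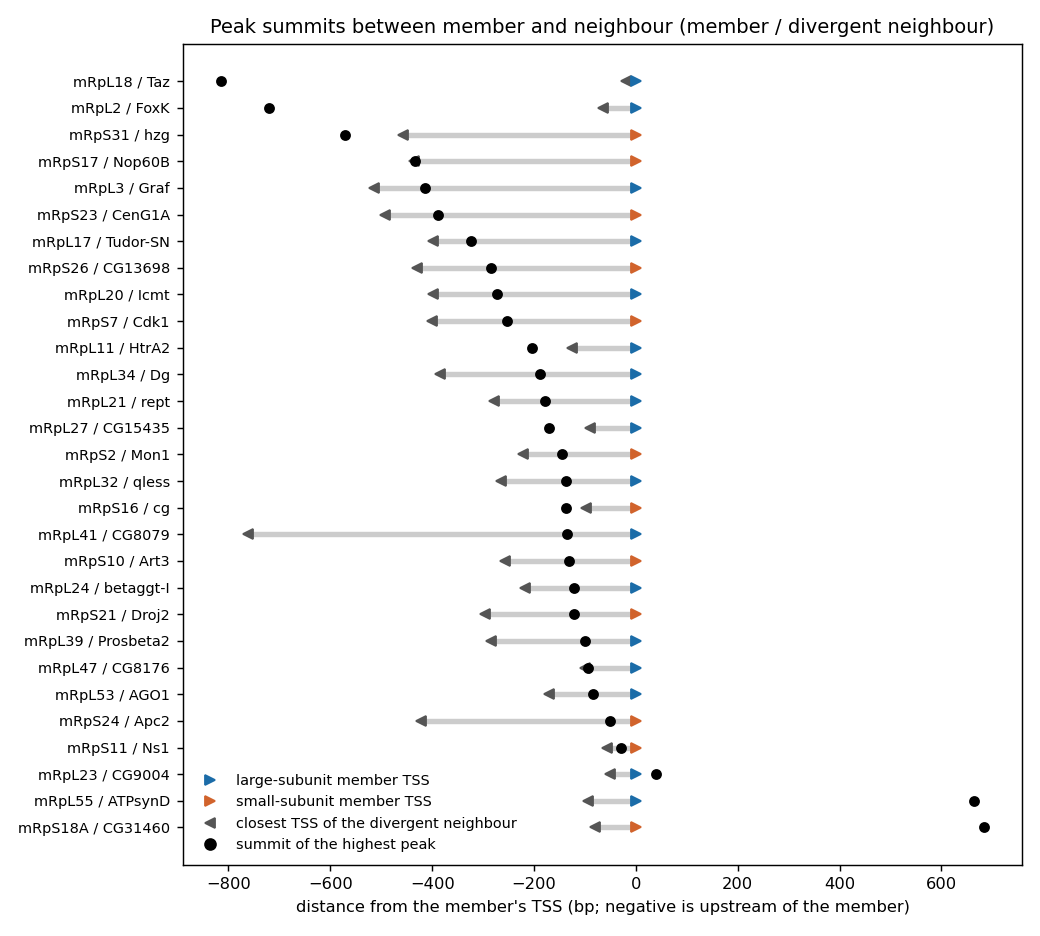
Position of the highest peak's summit (black) at the 29 bound genes, in bp from the TSS of the ribosomal protein gene nearest to the summit (right-pointing triangle; large subunit blue, small subunit orange; negative is upstream), with the closest TSS of the divergent neighbour (left-pointing triangle) and the stretch between them in grey. In 20 rows the summit lies between the triangles, in 6 past the neighbour and in 3 downstream of the member.

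When each peak was given only to the gene of its nearest TSS, 8 of the 73 genes were bound, a smaller share than the 19.7% of all coding genes, and the ratio to the matched number was 1.34. Lower second peaks also counted in this rule. Most of the peaks counted by the 1000 bp rule were thus nearer to a TSS of another gene. The divergent neighbours of the bound genes, whether or not nearer to the summit, are of varied function. Examples are Cdk1 next to mRpS7, the DNA helicase gene rept next to mRpL21 and FoxK next to mRpL2. Others are the dystroglycan gene Dg next to mRpL34 and Apc2 next to mRpS24, where the summit was nearer to the ribosomal protein gene. Some encode mitochondrial proteins themselves, such as ATPsynD, a subunit of ATP synthase, next to mRpL55, where the summit was nearest to another gene, cdi.

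The 44 unbound genes had their nearest optimal summit 1463 to 1441848 bp away (median 6436 bp). The closest outside the limit was mRpL13 at 1463 bp, and the farthest was mRpS5. The unbound large-subunit genes with a shared promoter were mRpL1, mRpL4, mRpL13, mRpL15, mRpL16, mRpL22, mRpL28, mRpL30, mRpL33, mRpL35, mRpL36, mRpL37, mRpL38, mRpL42, mRpL43, mRpL44, mRpL46, mRpL48, mRpL50, mRpL51, mRpL52 and mRpL54. The unbound small-subunit genes with one were mRpS6, mRpS14, mRpS18B, mRpS18C, mRpS22, mRpS25, mRpS28, mRpS29 and mRpS30. In 3 cases a neighbour counted as bound through another of its TSSs or another peak, at mRpL13, mRpL22 and mRpL33.

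Unbound here means no peak that passed the IDR threshold, and weaker peaks were present at some of these genes. In the pooled list of 30000 peaks, which includes background, a summit lay within 1000 bp of 11 of the 44 (25%), against 27.2% of all coding genes not bound. They were 10 of the 31 with a shared promoter and 1 of the 13 without one, mRpL19. Ranks are given for the pooled summit nearest to a TSS, which need not be the highest within 1000 bp. They ran from 6771 at mRpS18B, a little past the 6407 that make up the optimal list, to 24048 at mRpL30. For mRpS6 the nearest summit was 2 bp from a TSS with a rank of 19109, although the leading peaks of replicate 4 alone called this gene bound. The share with a weaker peak was therefore close to that of other unbound genes.

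The other genes of mitochondrial translation (25 aminoacyl-tRNA synthetases, translation factors and ribosomal proteins with other symbols) had 7 bound (28%), with a matched number of 5.22. The bound ones were AlaRS-m, ArgRS-m, LeuRS-m and ProRS-m, which charge mitochondrial tRNAs, the elongation factor gene mEFTs, and bonsai and tko, which encode the mitochondrial counterparts of bacterial S15 and S12. LeuRS-m had the highest signal of these, 1139, though the summit nearest to its TSS, at 109 bp, belonged to a lower peak, and AlaRS-m had 900.8. As in the ribosomal protein genes, most bound ones shared a promoter, 6 of 10 with a neighbour and 1 of 15 without. The exception was tko, with a signal of 515.8 and a summit 32 bp from its TSS.

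The cytosolic ribosomal protein genes had 76 of 92 bound (82.6%), with a matched number of 18.4, and the oxidative phosphorylation subunit genes had 19 of 88 bound (21.6%), with a matched number of 17.4. The mitochondrial ribosomal protein genes, at 39.7%, lay between them. The cytosolic genes differed in that 24 of 34 without a shared promoter were bound (70.6%), and their median signal was 605.3, against 340.5 at the mitochondrial ones. For oxidative phosphorylation the counts were 15 of 51 with a shared promoter and 4 of 37 without. No test of these differences between lists was made.

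Promoter sequence was searched from 250 bases before to 50 after the most upstream TSS, on both strands. CAGCTG was found in 40 of 73 promoters of the family (54.8%), against 17.7% of all coding promoters and 21.1% of those with a shared promoter. It was in 16 of 29 bound genes (55.2%) and 24 of 44 unbound ones (54.5%). Over all coding genes it was in 24.2% of bound and 15.4% of unbound promoters, and with a shared promoter in 27.2% and 17.8%. The other genes of mitochondrial translation held it in 13 of 25 (52%), the oxidative phosphorylation genes in 21 of 88 (23.9%) and the cytosolic ribosomal protein genes in 9 of 92 (9.78%). In the ribosomal protein genes the bound and unbound shares were thus close, unlike those of all coding genes, and no test of that difference was made.

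Its position was concentrated at the TSS, which was looked at after the counts were known. A CAGCTG lay within 50 bases before to 50 after the TSS in 15 of 29 bound and 20 of 44 unbound genes, against 9.3% of all coding genes. In mRpL24, for example, a copy starts 20 bases after the TSS, and in mRpS2 11 bases before it. Within 100 bp of the summit CAGCTG occurred at 4 of 29 peaks (13.8%), a share near the 16.9% of the peaks of all bound coding genes.

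**Figure D4:**
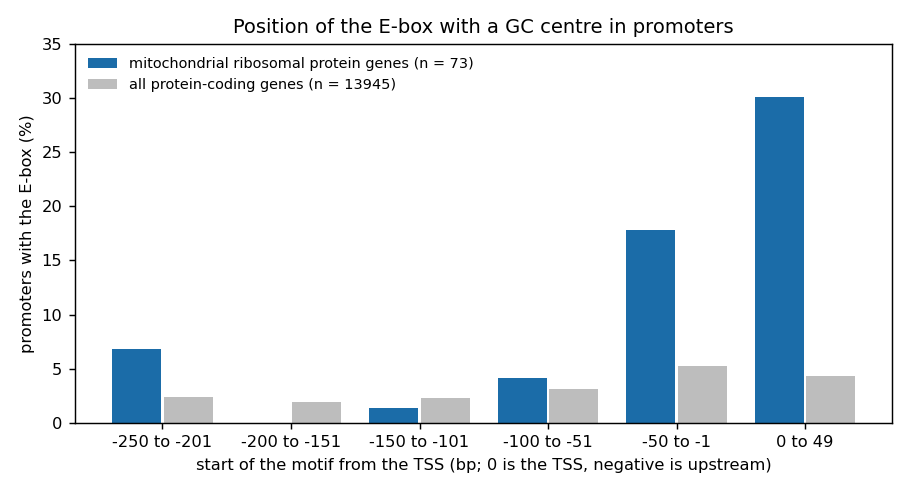
Share of promoters (percent) with an E-box of GC centre starting in each 50-base bin from 250 bases before to 50 after the TSS, for the 73 mitochondrial ribosomal protein genes (blue) and all 13945 protein-coding genes (grey); a promoter is counted in each bin in which it holds a copy. The shares from 50 bases before the TSS to the TSS and just after it are 17.8% and 30.1% in the family and 5.26% and 4.33% in all genes.

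CAGGTG, the usual Snail-family E-box, was in 2 of 29 bound promoters (6.9%) and 4 of 44 unbound ones (9.09%), against 9.32% of all coding promoters. Within 100 bp of the summit it occurred at 4 of 29 peaks (13.8%), against 8.63% of the peaks of all bound coding genes. The longer CAACAGGTG, which contains it, was in 0 of the 73 promoters and in 0.409% of all. GCAACA, which overlaps its first bases when preceded by G, was in 8 of 29 bound (27.6%) and 8 of 44 unbound promoters (18.2%). These shares were close to those of all coding genes, 27.6% of bound and 18.6% of unbound promoters.

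Of the core-promoter motifs, the DRE was in 6 of 29 bound (20.7%) and 9 of 44 unbound promoters (20.5%), against 9.36% of all and 30.4% of cytosolic ribosomal protein promoters. GGTCACACT was in 4 of 29 (13.8%) and 4 of 44 (9.09%), against 6.05%. TATAAA was in 10 of 29 bound (34.5%) and 24 of 44 unbound promoters (54.5%), against 45.8%. The initiator core TCAGT was in 11 of 29 (37.9%) and 17 of 44 (38.6%), against 51.5%. Among all coding genes with a shared promoter the shares were 14.1% for the DRE, 9.27% for GGTCACACT, 47.8% for TATAAA and 47.2% for TCAGT. Median GC content was 34.7% in bound and 35.2% in unbound promoters, against 38% in all.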

How the data were processed

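The 2 libraries form 1 group and no test between samples was possible. The data are peak lists on dm6. Per the file listing that accompanies the deposited lists, the authors called peaks over controls in each replicate and in the pool (30000 peaks per list, background included) and made the optimal list of 6407 with an IDR threshold. The peak caller, its settings and the depth of sequencing are not stated in these sources, so no interval for depth can be had. The deposited signal is the authors' own value, compared only within a list. The deposited −log10 q-value was at its highest, 4.02, in 81.3% of the optimal list and was left aside. The summit is the start plus the deposited offset.

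Genes and TSSs came from Ensembl release 115 on Release 6 coordinates, where 0 of 96407 peaks exceeded the length of their chromosome. Replicate peaks were matched by an overlap of at least 1 bp. The number for matched genes is the sum, over the list, of the share bound among genes outside the list of the same length decile and TSS class. The list of cytosolic or oxidative phosphorylation genes follows symbol patterns, and the latter also takes in testis-type paralogs. Of 12 translation genes given by name, 2 had no match.

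Named were all members as bound or unbound, with values for the 12 bound of highest and the 5 of lowest signal and those just inside or outside 1000 bp; other values printed were chosen after they were seen. The members and lists were chosen with earlier results of these data known. Alternatives were other windows, single replicates, the upper 3203 peaks, interval overlap and nearest-TSS assignment; 2 more were added after seeing the data. The binding rule and the matched numbers were tested on simulated data. The simulated summits lay at genes with a single TSS and no other coding TSS nearby. The steps on shared promoters, neighbours and the nearest TSS were therefore not covered. Computations used Python 3.11.15, numpy 2.4.6, pandas 2.3.3 and matplotlib 3.10.9.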

Additional observations from a re-analysis of the deposited data

How the results depend on the processing

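Bound genes of the family numbered 24 with a window of 500 bp and 31 with 2000 bp (22% and 31.1% of all coding genes), and 28 to 29 from a single replicate. The ratio to matched genes was 2.93 and 2.07 for these windows and 2.67 to 3 for single replicates. Large-subunit counts from a single replicate were 16 to 18 and small-subunit counts 11 to 12, bound genes nearest to their own TSS 6 to 8, and other mitochondrial translation genes 6 to 7. With the upper 3203 peaks, 15 of the 73 genes were bound (9 large, 6 small, 15 with a shared promoter, 4 nearest to their own TSS), against 16.2% of all coding genes. The ratio to matched genes was 2.49, the median signal was 650.5 and 3 other translation genes were bound. Fewer peaks enter by construction. With peak intervals that cover a TSS, again by construction a narrower rule, 18 of the 73 were bound (11 large, 7 small, 18 shared). The share of all coding genes was 14.8% and the ratio to matched genes was 3.2. With peaks given to the nearest TSS only, 8 were bound (5 large, 3 small, 8 shared), the ratio was 1.34 and 3 other translation genes were bound; the family's share, above that of all coding genes in the 1000 bp rule, was then below their 19.7%. A shared promoter added to the strata gave a ratio of 1.87. A further 2 alternatives were chosen after seeing the data. With only peaks among the leading peaks of both replicates, 22 of the 73 genes were bound, against 20.8% of all coding genes. The ratio was 2.86, and 4 of the 22 were nearest to their own TSS. With a neighbouring TSS within 500 bp, 27 of the 29 shared a promoter. Around summits in place of promoters, TATCGATA was at 2 bound genes, GGTCACACT at 0 and CAGCTG at 4. GGTCACACT, at 13.8% of bound and 9.09% of unbound promoters, was then at 0% and 9.09%, and CAGCTG, at 55.2% and 54.5%, was then at 13.8% and 50% (summits of bound genes, TSSs of unbound ones). Of the alternatives computed, 43 values were counted as close to the main value and 22 as moved. The count of close values was a broad one. It took in shifts such as a ratio of 2.9 to 2.07 with the 2000 bp window. Another was 12 to 8 small-subunit genes with only peaks among the leading peaks of both replicates. No paired analysis was possible because the replicates form a single group. Unknown read depth limits what an unbound call means.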

Other observations

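Binding was uneven over the chromosomes, a split made after the values were seen. On X, 1 of 11 genes of the family was bound (mRpL3, 9.09%), against 22.7% of all coding genes on X. Among those with a shared promoter it was 1 of 9 on X and 28 of 51 elsewhere, against 29.7% of all X-linked genes with a shared promoter. The unbound X-linked genes were mRpL14, mRpL16, mRpL22, mRpL30, mRpL33, mRpL38, mRpL49, mRpS14, mRpS25 and mRpS30. On the autosomal arms the counts were 5 of 12 on 2L (41.7%, against 24.7% of all coding genes there), 6 of 12 on 2R (50%, against 24.5%), 8 of 17 on 3L (47.1%, against 27.8%) and 9 of 21 on 3R (42.9%, against 27.6%). Embryos were of mixed sex, and the part of X dosage in these counts was not tested.

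Genes of the family whose divergent neighbour had several TSSs were bound in 12 of 21 cases (57.1%), and those whose neighbour had 1 TSS in 17 of 37 (45.9%). Among all coding genes with 1 TSS of their own the shares were 41% and 28%. By spacing of the pair, with the neighbouring TSS at up to 100 bp, 10 of 20 were bound (50%), beyond that up to 300 bp 8 of 14 (57.1%), then up to 500 bp 9 of 20 (45%) and up to 1000 bp 2 of 6 (33.3%). In all coding genes the shares over the same distances were 37.5%, 38.4%, 37.7% and 27.3%.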
